A study of Homo sapiens with 6 samples.

Results

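The genes of sterol and fatty acid synthesis were compared between L1high and L1low L3.6pl cells by RNA-seq. L3.6pl is a metastatic human pancreatic cancer line, and L1CAM is a neural cell adhesion molecule carried on the surface of some of its cells. The 35 genes were picked by name from the SREBP pathway, cholesterol synthesis, lipogenesis and sterol efflux, and all 35 were among the 19469 genes of the count table. L1high cells (3 libraries, titled L1CAM positive) and L1low cells (3 libraries, titled L1CAM negative) are fractions of the line, separated with a PE-coupled antibody to L1CAM after dead cells had been gated out. Both fractions were untreated and grown in the same serum-containing medium, so they differ by the gate and not by an engineered change in L1CAM. The titles name the line L3_6PL whereas the cell line label reads L6.6pl, and the tissue is given as pancreatic ductal adenocarcinoma but the disease as adenosquamous carcinoma. The labels do not say whether libraries of a fraction came from separate cultures, so p-values measure only the spread between these libraries, which may be technical.

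Total counts ran from 16334610 to 21064685 per library. L1CAM itself stood at 84.0, 69.8 and 89.5 CPM (read counts scaled to equal library totals with TMM factors) in L1high replicates 1, 2 and 3 and at 17.7, 23.7 and 20.0 CPM in L1low, so every library fell on the side of its label. All 10 epithelial identity markers were measured, with summed levels of 8090 to 8788 CPM in L1high and 9193 to 9804 CPM in L1low. KRT5, KRT7 and KRT19 made up most of that sum. KRT5, KRT7, KRT19, TP63 and ELF3 were higher in every L1low than in every L1high library, and EPCAM, CDH1, KRT8 and CLDN4 lower. Over 5 libraries TP63 (log2 fold change 1.09, edgeR adjusted p = 3.9e-06), KRT19 (0.69, edgeR adjusted p = 6.8e-05) and ELF3 (0.45, edgeR adjusted p = 0.0066) were called higher. EPCAM was called lower, with a log2 fold change of -0.37 (edgeR adjusted p = 0.013). Of 10 fibroblast markers 4 were measured, with summed levels of 451 to 475 CPM in L1high and 706 to 713 CPM in L1low, nearly all of it VIM and LUM. Over 5 libraries VIM (log2 fold change 0.60, edgeR adjusted p = 0.0002) and LUM (0.74, edgeR adjusted p = 0.00031) were called higher. COL1A2, DCN, PDGFRA, PDGFRB, FAP and THY1 were not found among the genes of the count table, each of which exceeded 1 CPM in at least 2 libraries. Of 8 leukocyte and endothelial markers only CD68 and PECAM1 were measured, and they summed to 19.7 to 20.7 CPM and 23.2 to 24.5 CPM. A list of 10 genes induced by dissociation and sorting summed to 7649 to 8264 CPM in L1high and 9596 to 10310 CPM in L1low. FOS, FOSB and EGR1 made up most of that sum. Over 5 libraries 5 of the 10 were called higher, beside 4.41% of all genes. JUN, HSPA1A and HSPA1B (log2 fold changes 0.14, 0.08 and 0.02) were not called. The 10 proliferation genes summed to 3021 to 3121 CPM and 2589 to 2706 CPM. Of these 4 were called lower, beside 3.15% of all genes, while MKI67 (0.01) and MCM2 (0.07) were not called. The part of these markers in the results on lipid genes was not tested.

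Cholesterol is built from acetyl-CoA through mevalonate, the isoprenoid units, squalene and lanosterol, and fatty acids from the same acetyl-CoA through malonyl-CoA. Most enzymes of both routes are transcribed under the SREBP factors, which SCAP escorts from the endoplasmic reticulum to the Golgi for cleavage when sterols are scarce and which the INSIG proteins hold back when sterols are plentiful. Excess sterol, as oxysterol, instead activates the nuclear receptors LXR, whose target genes ABCA1, ABCG1 and MYLIP serve to export cholesterol and to lower its uptake. Pancreatic tumor cells use these routes for membranes, protein prenylation and lipid storage.

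Promoters were searched for the letters of both systems' binding elements. RefSeq promoter windows (GRCh38.p14, 250 bases before to 50 after the start) were matched for 30 of the 35 genes (not ABCG1, ACAT2, FASN, FDFT1 and SQLE), and ABCA1, ACSL3 and SREBF2 are shown because they held the closest matches to the LXR and SREBP elements. Capitals mark the match, which is a description of letters and not a site shown to be bound. SREBF2, chr22:41832942-41833010 on the plus strand, is shown for TCACNCCAC, the sterol response element as searched, 133 to 125 bases before the start. ABCA1, chr9:104928180-104928254 on the minus strand, and ACSL3, chr2:222860834-222860908 on the plus strand, are shown for a relaxed form of the LXR element (GGTNA, then 5 bases of any kind, then GGTCA, here read on the opposite strand), 69 to 55 and 172 to 158 bases before the start.
SREBF2: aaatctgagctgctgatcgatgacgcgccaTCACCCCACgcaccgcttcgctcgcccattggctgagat
ABCA1: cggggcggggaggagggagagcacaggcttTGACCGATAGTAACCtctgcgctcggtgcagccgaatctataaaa
ACSL3: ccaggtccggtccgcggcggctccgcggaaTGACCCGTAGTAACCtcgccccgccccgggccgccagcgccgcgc

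Matches were counted per gene on both strands, in any of its windows, and some genes had several windows. TCACNCCAC occurred in 1 of the 30 genes (3.3%), SREBF2, against 1.39% of all 27195 genes with windows of this length. The looser TCACNCNAC, which takes in the first, occurred in 4 of 30 (13.3%), SREBF2, FADS2, FDPS and HSD17B7, against 3.14%. CCAAT, the letters of the NF-Y element that often stands beside a sterol response element, occurred in 22 of 30 (73.3%) against 39.7%. CANNTG, the E-box, was about as common in these genes (70.0%) as in all genes (73.0%). The relaxed LXR element occurred in 2 of 30 (6.7%), ABCA1 and ACSL3, against 82 of all genes (0.302%). The strict element, AGGTCA repeated after 4 bases of any kind, occurred in none of the 30 and in 7 of all (0.0257%). The relaxed form leaves free the bases at which the ABCA1 match departs from the strict element, and it was chosen after values were seen. Its share among these genes was thus partly set by that choice and measures no enrichment.

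Across the 35 genes the comparison of L1low with L1high gave few differences, and those that passed were all higher in L1low. Over the 5 libraries of the study's own comparison, which leaves out L1high replicate 3 without a stated reason, ABCG1, SCD and TM7SF2 were called (edgeR quasi-likelihood test, adjusted p under 0.05 over all genes). Over all 6 libraries ABCG1, SCD and ABCA1 were called. The 3 of 35 called in each fit make 8.57%, close to the 7.57% of all 19469 genes called over 5 libraries (4.41% higher and 3.15% lower in L1low) and the 7.95% over 6 (4.58% higher and 3.37% lower). No member was called lower in these edgeR fits or by DESeq2 over 5 libraries, and 12 of the 35 had an unadjusted p under 0.05 over 5 libraries, against 23.3% of all genes. Log2 fold changes (L1low over L1high, 5 libraries) ran from -0.44 for SC5D to 0.72 for ABCA1, with 19 estimates above 0 and 16 below and a median of 0.02. They stayed within 0.3 of 0 for 30 of the 35 genes, as for 74.0% of all genes. For 10 of the 35 genes the ranges of L1low and L1high over 3 libraries each were apart. These were DHCR7, SREBF2, SCAP, SCD, ABCA1, ABCG1 and MYLIP on the higher side and SQLE, ACLY and FADS1 on the lower side. The share of all genes whose ranges were apart was 28.8% (15.2% higher and 13.7% lower). In bulk RNA, a lower or higher share of cells that express a gene cannot be told apart from a change in RNA per cell.

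**Figure D1:**
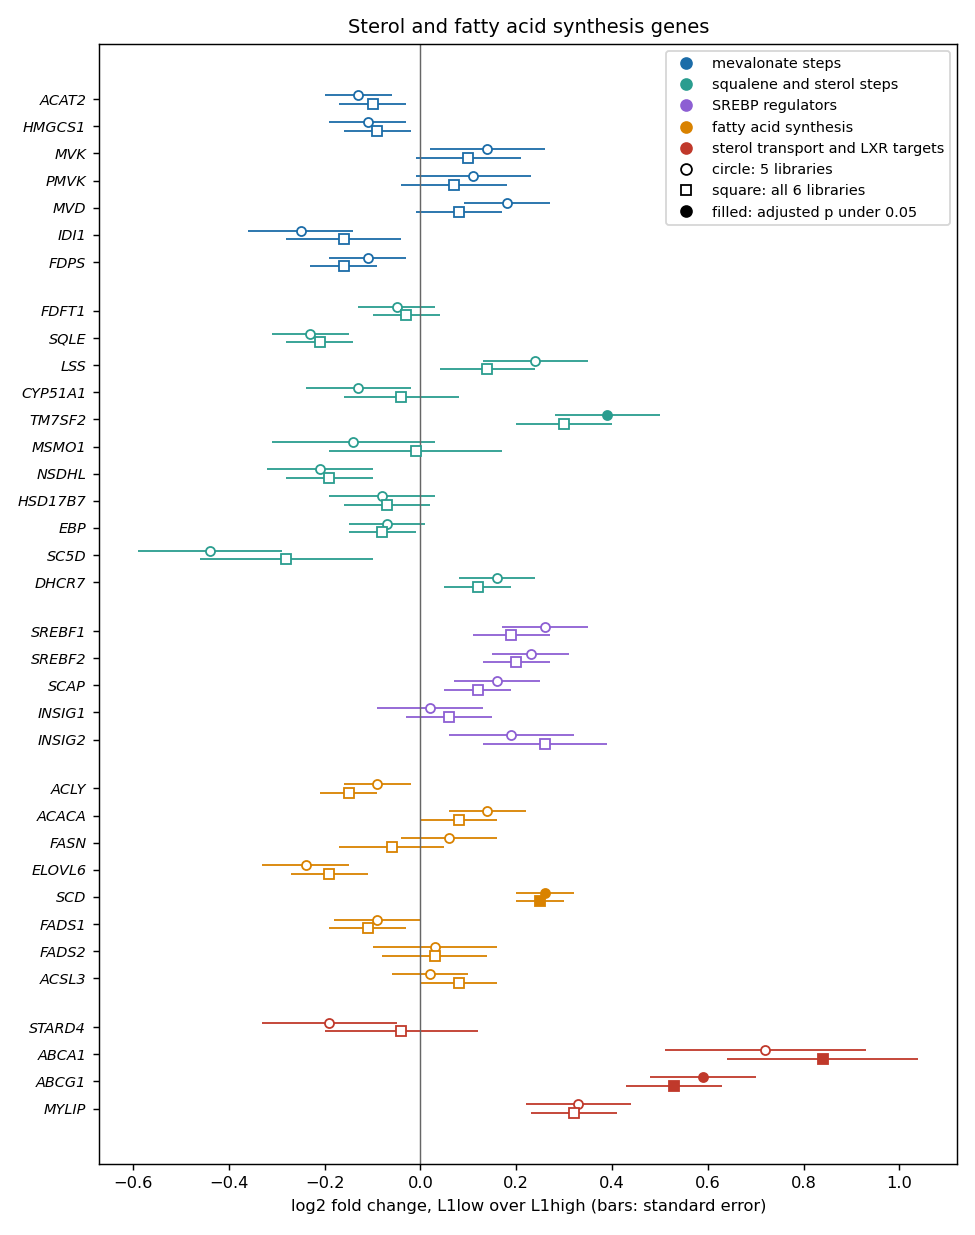
Log2 fold change (L1low over L1high) of each of the 35 genes, by role, with circles for the fit over 5 libraries, squares for the fit over all 6 and bars for the standard error. Filled symbols passed an adjusted p under 0.05, which 3 genes did in each fit, all to the right of 0.

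The sterol efflux and LXR target genes held the 2 highest fold changes, those of ABCA1 and ABCG1. ABCG1 (ENSG00000160179, chr21:42199689-42297244, plus strand, GRCh38), which exports cholesterol to lipoprotein particles, stood at 22.2, 19.1 and 23.3 CPM in L1high replicates 1, 2 and 3 and at 30.0, 30.5 and 32.5 CPM in L1low. Every L1low library lay above every L1high library, at 31.0 ± 1.33 CPM (SD, n = 3) against 20.7 ± 2.24 CPM (SD, n = 2) for L1high replicates 1 and 2. ABCG1 rose by 0.59 on the log2 scale over 5 libraries (SE 0.11, 1.51-fold, 95% interval 0.36 to 0.83, edgeR adjusted p = 0.0058). Over all 6 libraries the log2 fold change was 0.53 (SE 0.10, edgeR adjusted p = 0.0072).

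ABCA1 (ENSG00000165029, chr9:104781006-104928155, minus strand), which loads cholesterol and phospholipid onto apolipoprotein acceptors and whose promoter match is printed above, was the lowest of the 35 genes per length. It stood at 4.81, 4.43 and 3.41 CPM in L1high, from 102, 91 and 56 reads, and at 8.15, 9.03 and 5.59 CPM in L1low, from 148, 162 and 99 reads. The groups did not overlap, although replicate 3 was the lowest library in both. ABCA1 rose by 0.84 on the log2 scale over all 6 libraries (SE 0.20, 1.79-fold, 95% interval 0.40 to 1.27, edgeR adjusted p = 0.024). Over 5 libraries its estimate was 0.72 (SE 0.21, 1.65-fold, 95% interval 0.27 to 1.18) and missed the threshold at an edgeR adjusted p of 0.055.

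MYLIP (ENSG00000007944, chr6:16129086-16148248, plus strand), the ubiquitin ligase that marks lipoprotein receptors for degradation, had a mean of 7.89 RPKM beside 7.70 RPKM for STARD4, with overlapping ranges over the 6 libraries. It stood at 21.5, 21.6 and 21.6 CPM in L1high and at 27.6, 28.0 and 25.1 CPM in L1low. The groups were apart by more than the spread within either, yet the log2 fold change of 0.33 (SE 0.11, 95% interval 0.10 to 0.56) had an edgeR adjusted p of 0.086 over 5 libraries, and 0.32 (SE 0.09) one of 0.052 over 6. STARD4, a soluble carrier of cholesterol between membranes and a target of SREBP rather than LXR, stood at 48.6, 50.5 and 34.0 CPM in L1high and 49.0, 46.9 and 33.5 CPM in L1low. Replicate 3 was well below the other two in both groups, and its log2 fold change was -0.19 (SE 0.14, edgeR adjusted p = 0.44).

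**Figure D2:**
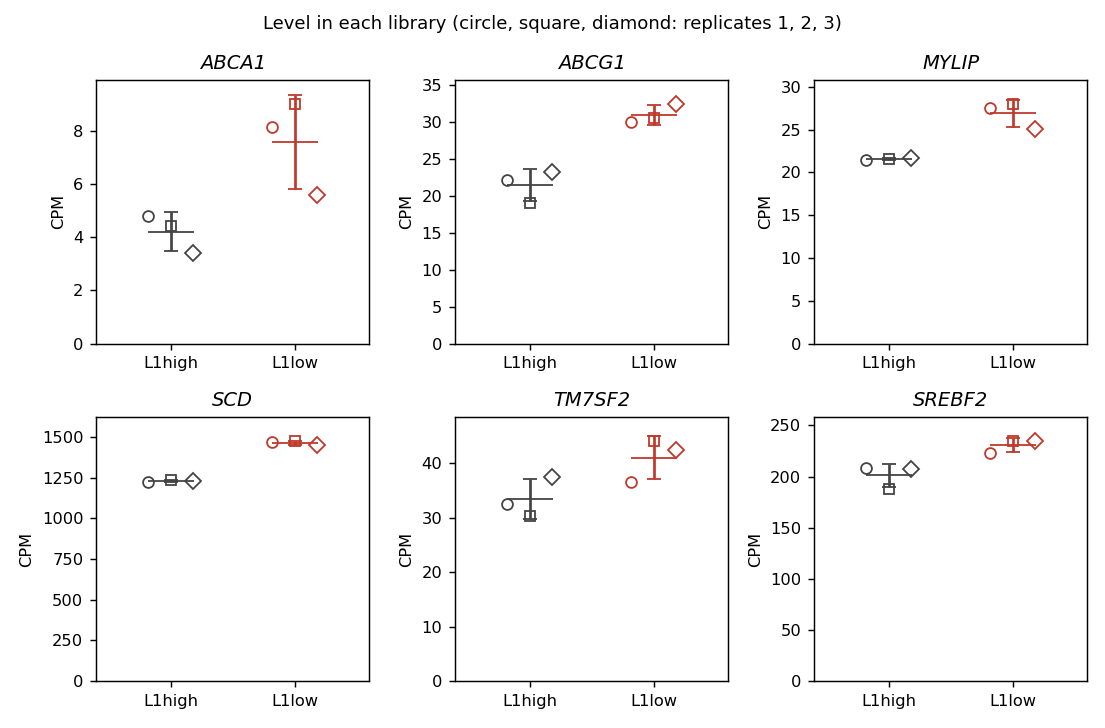
CPM of ABCA1, ABCG1, MYLIP, SCD, TM7SF2 and SREBF2 in each L1high and L1low library, with points for replicates 1 to 3 and bars for the mean ± SD (n = 3). The L1low points lie above the L1high points in each panel but that of TM7SF2, where L1high replicate 3 (37.5 CPM) is above L1low replicate 1 (36.6 CPM).

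Among the fatty acid genes, SCD alone was called over the 5 and over the 6 libraries. SCD (ENSG00000099194, chr10:100347233-100364826, plus strand), the desaturase that makes oleate from stearate, had the most RNA per length of the 35 genes, with a mean of 257 RPKM (reads per kilobase of exon, scaled to the library totals without TMM factors). It stood at 1223, 1238 and 1231 CPM in L1high and at 1472, 1476 and 1453 CPM in L1low. The libraries of each group were within a narrow band, 1230 ± 11.2 CPM (SD, n = 2) for L1high replicates 1 and 2 and 1467 ± 12.4 CPM (SD, n = 3) for L1low. SCD rose 1.20-fold over 5 libraries (log2 fold change 0.26, SE 0.06, 95% interval 0.12 to 0.40, edgeR adjusted p = 0.028) and 1.19-fold over 6 (0.25, SE 0.05, edgeR adjusted p = 0.012). A processed pseudogene of SCD, SCDP1, held 6.28% as many reads as SCD and had a log2 fold change of 0.32 (edgeR adjusted p = 0.037), so reads may be split between the pair.

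The enzymes before SCD in the route were not called in either of these fits. ACLY, which releases acetyl-CoA from citrate, stood at 404, 394 and 438 CPM in L1high and at 364, 379 and 375 CPM in L1low. The groups did not overlap, and the log2 fold change was -0.09 (SE 0.07, edgeR adjusted p = 0.45) over 5 libraries and -0.15 (edgeR adjusted p = 0.19) over 6. FASN, the synthase that assembles palmitate, stood at 691, 533 and 763 CPM in L1high and 608, 675 and 619 CPM in L1low. Its L1high libraries enclosed the L1low ones, and its log2 fold change was 0.06 (SE 0.10, 95% interval -0.16 to 0.28, edgeR adjusted p = 0.76) over 5 libraries and -0.06 over 6. ACACA, which makes malonyl-CoA, had a log2 fold change of 0.14 (edgeR adjusted p = 0.35).

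The genes that lengthen, desaturate and activate fatty acids were not called in these fits either. ELOVL6, the elongase of palmitate, stood at 61.1, 67.3 and 55.7 CPM in L1high and 53.2, 52.9 and 55.8 CPM in L1low, with a log2 fold change of -0.24 (SE 0.09, 95% interval -0.43 to -0.06, edgeR adjusted p = 0.11). The polyunsaturated fatty acid desaturases FADS1 and FADS2 had log2 fold changes of -0.09 (edgeR adjusted p = 0.60) and 0.03 (edgeR adjusted p = 0.90). They overlap each other on opposite strands, and FADS2 also overlaps FEN1 on its own strand. ACSL3, which couples fatty acids to coenzyme A and whose promoter match is printed above, had a log2 fold change of 0.02 (SE 0.08, 95% interval -0.16 to 0.19, edgeR adjusted p = 0.92). The median over the 8 fatty acid genes was 0.03 over 5 libraries and -0.01 over 6, beside medians of 0.0016 and -0.0087 over all genes.

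The mevalonate enzymes were called in neither edgeR fit nor by DESeq2, and 1 of them, IDI1, had an unadjusted p under 0.05 over 5 libraries. The 7 genes ran from -0.25 to 0.18 on the log2 scale over 5 libraries, with a median of -0.11, and from -0.16 to 0.10 over 6. With the GC offsets described further on, the median over 5 libraries was 0.0033. FDPS, the farnesyl diphosphate synthase, was the second of the 35 genes per length with a mean of 91.6 RPKM. It stood at 358, 339 and 383 CPM in L1high and at 304, 312 and 348 CPM in L1low. The groups overlapped through L1low replicate 3, and the log2 fold change was -0.11 (SE 0.08, 95% interval -0.28 to 0.06, edgeR adjusted p = 0.44) over 5 libraries and -0.16 (edgeR adjusted p = 0.20) over 6. FDPS has 5 processed pseudogenes in the table, of which FDPSP1 held 23.3% as many reads as FDPS.

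At the start of the route, ACAT2, the cytosolic thiolase, had a log2 fold change of -0.13 (SE 0.07, edgeR adjusted p = 0.32). HMGCS1, the synthase of the next step, had one of -0.11 (SE 0.08, 95% interval -0.28 to 0.05, edgeR adjusted p = 0.41). The kinases MVK and PMVK and the decarboxylase MVD, which act in turn on mevalonate, had log2 fold changes of 0.14, 0.11 and 0.18, with edgeR adjusted p-values of 0.50, 0.62 and 0.23. IDI1, which interconverts the isoprenoid units, stood at 109, 119 and 90.0 CPM in L1high and 107, 97.1 and 80.2 CPM in L1low. Its log2 fold change of -0.25 (SE 0.11, edgeR adjusted p = 0.18) was the lowest of the mevalonate group over 5 libraries, whereas with L1high replicate 2 left out of the 6 instead it was -0.07 and that of FDPS -0.21.

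Of the 11 enzymes from squalene to cholesterol, TM7SF2 was called over 5 libraries and none over 6. TM7SF2 (ENSG00000149809, chr11:65111845-65116384, plus strand), a sterol reductase that acts just after lanosterol demethylation, stood at 32.5, 30.3 and 37.5 CPM in L1high and at 36.6, 44.1 and 42.4 CPM in L1low. It rose 1.31-fold over 5 libraries, from 31.4 ± 1.59 CPM (SD, n = 2) to 41.0 ± 3.94 CPM (SD, n = 3; log2 fold change 0.39, SE 0.11, edgeR adjusted p = 0.042). TM7SF2 also overlaps VPS51 on its own strand, though by only 18 bases, and VPS51 had a log2 fold change of 0.22 (edgeR adjusted p = 0.19). With L1high replicate 3 included the groups overlapped and the log2 fold change was 0.30 (SE 0.10, edgeR adjusted p = 0.11).

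SC5D, a desaturase of the last steps, had the lowest estimate of the 35 genes over 5 libraries. It stood at 26.6, 30.6 and 18.5 CPM in L1high and at 22.9, 23.4 and 16.4 CPM in L1low, so that replicate 3 of L1high was below L1low replicates 1 and 2. Its log2 fold change was -0.44 (SE 0.15, 95% interval -0.76 to -0.13, edgeR adjusted p = 0.089) over 5 libraries and -0.28 (SE 0.18, edgeR adjusted p = 0.39) over 6. With L1high replicate 2 left out of the 6 in place of replicate 3, the estimate of SC5D was -0.12, less low than that of SQLE (-0.18). SQLE, the epoxidase that is a slow step of the route, stood at 135, 138 and 128 CPM in L1high and at 127, 113 and 109 CPM in L1low. Its groups did not overlap but lay close, and its log2 fold change was -0.23 (SE 0.08, 95% interval -0.41 to -0.05, edgeR adjusted p = 0.12) over 5 libraries and -0.21 (edgeR adjusted p = 0.12) over 6.

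EBP, the sterol isomerase, had the most RNA per length of this group, with a mean of 46.1 RPKM. It stood at 81.3, 86.0 and 84.6 CPM in L1high and 75.7, 77.2 and 84.7 CPM in L1low, with a log2 fold change of -0.07 (edgeR adjusted p = 0.66). The other enzymes were FDFT1, which joins farnesyl units to squalene, LSS, which closes the ring, CYP51A1 and MSMO1, which act in removing methyl groups together with NSDHL and HSD17B7, and DHCR7, a reductase of the final step. Their log2 fold changes ran from -0.21 for NSDHL to 0.24 for LSS, with edgeR adjusted p-values of 0.19 or more. CYP51A1 shares its strand with an overlapping gene of nearly as many reads (mean 1510 against 1586 per library), and its pseudogene CYP51A1P2 held 36.3% as many, so its count is uncertain. Taking mevalonate and sterol enzymes together, 12 of 18 estimates were below 0 with a median of -0.09 over 5 libraries and -0.05 over 6, and the 18 genes summed to 1676 to 1723 CPM in L1high and 1611 to 1649 CPM in L1low.

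The 5 regulators of the pathway all had estimates above 0 over 5 libraries, and none was called by edgeR over 5 or 6 libraries or by DESeq2. Over 5 libraries 2 of them (SREBF1 and SREBF2) had an unadjusted p under 0.05. Their median was 0.19, and 0.13 with the GC offsets described further on. SREBF1, SREBF2 and SCAP were over 54% GC, where the median over all genes was 0.103. INSIG1 and INSIG2 were at 44.8% and 36.3%. SREBF2, which encodes the SREBP of cholesterol synthesis and holds the TCACNCCAC match printed above in its own promoter, was the highest of the 5 regulators per length. It stood at 208, 188 and 208 CPM in L1high and at 223, 235 and 235 CPM in L1low. The groups did not overlap, and the log2 fold change was 0.23 (SE 0.08, 95% interval 0.06 to 0.40, edgeR adjusted p = 0.093) over 5 libraries and 0.20 (edgeR adjusted p = 0.096) over 6. SREBF1, which encodes the SREBP of fatty acid synthesis, stood at 194, 163 and 201 CPM in L1high and 201, 219 and 218 CPM in L1low. Its groups overlapped at 201 CPM, and its log2 fold change was 0.26 (SE 0.09, 95% interval 0.07 to 0.45, edgeR adjusted p = 0.097) over 5 libraries and 0.19 over 6. SREBF1 overlaps RAI1 on the other strand, which had a log2 fold change of 0.52 (edgeR adjusted p = 0.012), and the strand setting of the counting is not given in the sources used here.

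The escort SCAP had a log2 fold change of 0.16 (edgeR adjusted p = 0.28). The retention proteins INSIG1, itself a sensitive SREBP target, and INSIG2 had log2 fold changes of 0.02 (95% interval -0.21 to 0.25, edgeR adjusted p = 0.93) and 0.19 (edgeR adjusted p = 0.42). INSIG1 stood at 28.3, 28.9 and 25.9 CPM in L1high and 30.3, 29.9 and 26.3 CPM in L1low, and these ranges overlapped.

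**Figure D3:**
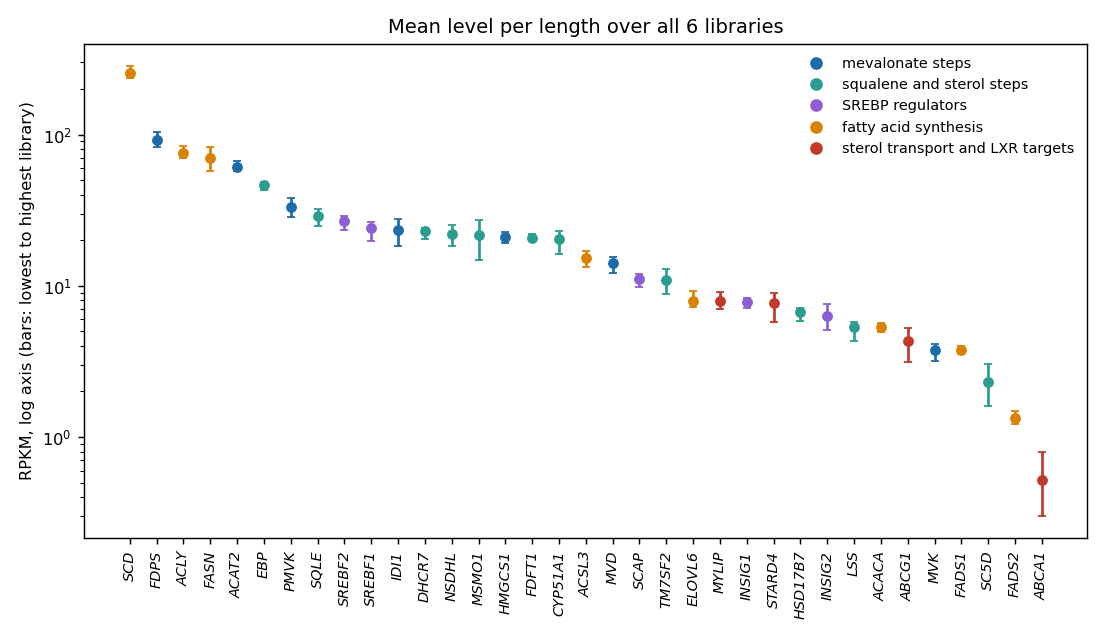
Level of each of the 35 genes in RPKM on a log axis, with points for the mean over 6 libraries and lines from the lowest to the highest library. SCD is the highest at 257 RPKM and ABCA1 the lowest at 0.52 RPKM.

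Per length, the order of levels was led by SCD (257 RPKM), FDPS (91.6 RPKM), ACLY (75.3 RPKM), FASN (69.6 RPKM) and ACAT2 (61.1 RPKM). ACLY was above FASN in every library, though their ranges over the 6 libraries overlapped, and ACAT2 was above FASN in L1high replicate 2, so the order of those last 2 is not resolved. The low end was held by FADS1 (3.76 RPKM), SC5D (2.30 RPKM), FADS2 (1.34 RPKM) and ABCA1 (0.52 RPKM).

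Replicate 3 stood apart from replicates 1 and 2 in both groups for part of the genes. It was the lowest library of both groups for 11 of the 35 genes, namely HMGCS1, IDI1, SQLE, CYP51A1, MSMO1, SC5D, INSIG1, INSIG2, ACSL3, STARD4 and ABCA1, and the highest of both for 5. Over all genes the shares were 19.1% lowest and 17.6% highest. MSMO1 stood at 66.4, 70.9 and 48.8 CPM in L1high and 77.1, 65.6 and 43.0 CPM in L1low, so that replicate 3 fell well below the others while the groups overlapped (log2 fold change -0.14, SE 0.17, edgeR adjusted p = 0.68). The GC content of the transcripts moved with this pattern. Its median was 39.0% for those 11 genes and 55.0% for the other 24, and over all genes it was 40.3% where replicate 3 was lowest in both groups and 53.9% where it was highest in both.

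**Figure D4:**
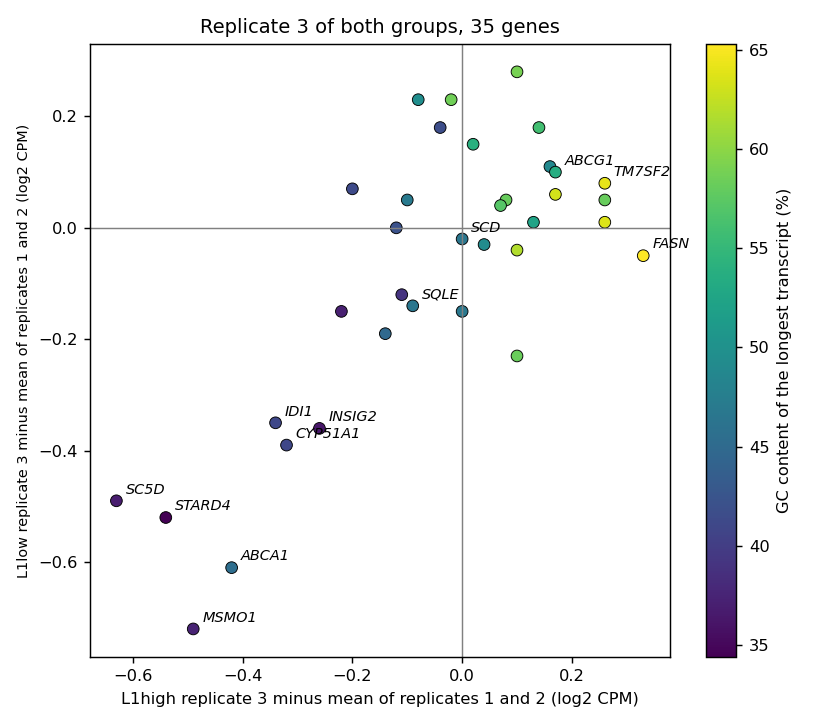
Log2 CPM of replicate 3 minus the mean of replicates 1 and 2 in L1high (x axis) and in L1low (y axis) for each of the 35 genes, coloured by transcript GC content. The 11 genes lowest in replicate 3 of both groups lie at the lower left, with a median GC content of 39.0%.

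GC content moved with the comparison between groups too. Over 5 libraries the 10 members under 42% GC had a median log2 fold change of -0.134 and the 13 members over 54% one of 0.155, beside -0.127 and 0.103 over all genes of the same GC classes. That fit keeps L1low replicate 3 but leaves out L1high replicate 3. Over all 6 libraries the trend was smaller, at -0.057 and 0.104 for the members and -0.08 and 0.052 over all genes. With offsets that remove the trend on GC content within each library, an alternative chosen after seeing the data, ABCG1 (log2 fold change 0.53, edgeR adjusted p = 0.0029), SCD (0.27, edgeR adjusted p = 0.0045), ABCA1 (0.75, edgeR adjusted p = 0.040), MYLIP (0.33, edgeR adjusted p = 0.048), INSIG2 (0.35, edgeR adjusted p = 0.032) and FDPS (-0.20, edgeR adjusted p = 0.0497) were called over 5 libraries. These 6 of 35 stand beside 10.3% of all genes called in that fit, and the 9 members called with the offsets over 6 libraries beside 13.8%. TM7SF2, at 64.2% GC, then had a log2 fold change of 0.28 and an edgeR adjusted p of 0.058. The estimates of ABCG1, SCD, ABCA1 and MYLIP were as large or nearly so with the offsets as without them. Their GC content was 45.5% to 53.7%. Between 42% and 54% GC the median over all genes was 0.002 without offsets over 5 libraries. A median near 0 does not show whether a trend ran within that class. ABCG1, at 53.7% GC, went from 0.59 without the offsets to 0.53 with them.

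Genes that act beside these routes were read from the same fit. Of 9 genes that process or degrade SREBP none was called by edgeR over 5 libraries and 1 by DESeq2. MBTPS1, a protease that cleaves SREBP in the Golgi, was the 1 gene of these with an unadjusted p under 0.05 (log2 fold change 0.30, edgeR adjusted p = 0.054). Of 12 genes of sterol uptake and trafficking, LRP1, a large endocytic receptor of lipoproteins, stood at 93.8, 77.2 and 106 CPM in L1high and 161, 165 and 159 CPM in L1low. LRP1 rose by 0.93 on the log2 scale (SE 0.09, edgeR adjusted p = 5.0e-05). GRAMD1B, which carries plasma membrane cholesterol to the endoplasmic reticulum, stood at 284, 274 and 303 CPM in L1high and 198, 208 and 215 CPM in L1low. GRAMD1B fell by 0.42 on the log2 scale (SE 0.07, edgeR adjusted p = 0.0036).

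Of 7 measured genes of sterol esters, oxysterols and LXR, SOAT1 alone was called. SOAT1, which esterifies cholesterol for storage, stood at 79.4, 75.1 and 76.5 CPM in L1high and 61.1, 53.0 and 42.2 CPM in L1low, and it fell by 0.56 on the log2 scale (SE 0.12, edgeR adjusted p = 0.017). The LXR genes NR1H2 and NR1H3 had log2 fold changes of 0.22 and 0.23 (edgeR adjusted p-values of 0.15 and 0.37). PLTP, LPCAT3 and TTC39B of the same list had log2 fold changes of 0.20, 0.17 and 0.12, and SMPDL3A one of -0.23. Their edgeR adjusted p-values were 0.13, 0.24, 0.50 and 0.39. Of 17 other lipogenic genes 4 were called. ACSL4, which activates arachidonate, rose by 0.39 (SE 0.08, edgeR adjusted p = 0.015). ME1, a source of NADPH, and HSD17B12 and HACD3, which act in very long chain elongation, had log2 fold changes of -0.33, -0.41 and -0.30 and adjusted p-values of 0.035, 0.044 and 0.044, and of the 4 only ACSL4 was called over 6 libraries.

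**Figure D5:**
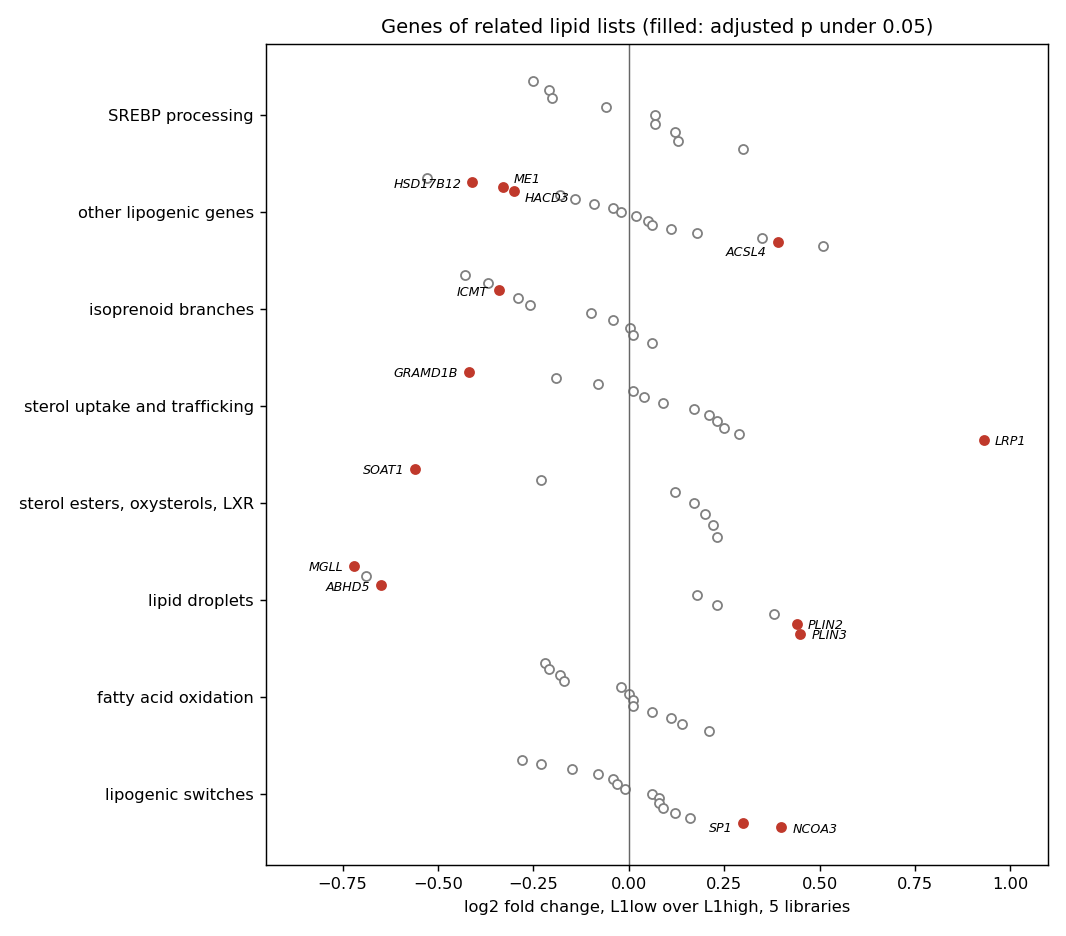
Log2 fold change (L1low over L1high, 5 libraries) of the 90 measured genes of 8 related lipid lists, each point a gene. Filled points passed an adjusted p under 0.05, 6 of them above 0 and 8 below, with LRP1 the highest at 0.93 and MGLL the lowest at -0.72.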

How the data were processed

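The deposited values were raw read counts per gene, made by the authors from paired-end reads of stranded mRNA libraries, aligned to GRCh38 with BWA, which does not splice, and counted with featureCounts on Ensembl release 94. Tool versions and the strand option are not given in the sources used here. Each of the 19469 genes exceeded 1 CPM in at least 2 libraries. Symbols, exon lengths and GC content came from GENCODE release 44 (19344 genes matched).

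The groups were tested against each other with edgeR 4.0.16 under R 4.3.3 (TMM, filterByExpr, quasi-likelihood test, Benjamini-Hochberg over all genes), over 5 libraries as in the study and over all 6. SE is the log2 fold change over the square root of F, and 95% intervals use the test's degrees of freedom. DESeq2 1.42.0, other scalings and filters, left-out libraries, a replicate block and GC offsets were alternatives. The fit was tested on simulated counts with changes larger than those of the 35 genes, equal dispersion for all genes and no GC or replicate effect. That test does not bear on calls of small changes. The 35 genes and all lists were chosen with earlier results of these data known. Genes with full values are the called ones and the highest per length in each role group. Others named, including more than 3 called genes of a related list, and the relaxed LXR elements, were chosen after their values were seen. Sequences are from RefSeq.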

Additional observations from a re-analysis of the deposited data

How the results depend on the processing

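Among the 14 alternatives, ABCG1 was called in all 14 (log2 fold change 0.45 to 0.62, adjusted p 0.000459 to 0.0386), SCD in 11 (0.24 to 0.27, up to 0.169), TM7SF2 in 8 (0.23 to 0.47, 0.0165 to 0.301), ABCA1 in 6 (0.58 to 0.94, 0.00185 to 0.222) and MYLIP in 4 (0.29 to 0.38, 0.0197 to 0.293), each by edgeR or DESeq2. The alternative without a filter repeated the fit over 5 libraries, since filterByExpr removed no gene, so its calls add no separate support. L1high libraries were left out of all 6, and L1low libraries of the 5. Leaving out 1 library gave 1 to 5 called members, 551 to 1649 called genes and 5 to 15 called genes of the related lists. ABCG1 was the only member called without L1high replicate 1 (674 genes over the table, 7 in the related lists) or without L1low replicate 2 (551 genes, 5 in the related lists). SCD and ABCG1 were called without L1high replicate 2, and SQLE (-0.30) joined TM7SF2 and ABCG1 without L1low replicate 1. TM7SF2, SCD, ABCA1, ABCG1 and MYLIP were called without L1low replicate 3. The cause was not tested in any of these.

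With the replicate block over all 6 libraries, 5 members (those same 5) and 2363 genes were called, and the fatty acid median was -0.01 as in the fit over 6. Whether the numbers pair the samples was not settled, and the fits over 5 and over 6 libraries left them unpaired. Deviations of same-numbered libraries correlated at 0.117, 0.0967 and 0.292 over 17023 genes. Replicate 3 of either group correlated with the other numbers of the other group at -0.198 to -0.146. L1high replicate 2 correlated slightly more with L1low replicate 1 (0.106) than with L1low replicate 2 (0.0967). With GC offsets 6 members were called over 5 libraries, and 9 members and 2677 genes over 6, the 9 being FDPS, TM7SF2, INSIG2, ACLY, SCD, ACSL3, ABCA1, ABCG1 and MYLIP.

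Medians moved with the setting. The median over the members ran from -0.02 to 0.07 with 1 library left out and was 0.003 with library totals and 0.0033 with GC offsets. That of the mevalonate genes was 0.0033 and -0.02 with GC offsets over 5 and 6 libraries, and that of the squalene and sterol genes -0.02 with GC offsets over 6 and from -0.09 to 0.01 with 1 library left out. The regulators' median ran from 0.11 to 0.22 with 1 library left out, the lower value without L1high replicate 2. With GC offsets it was 0.13 over 5 libraries and 0.14 over 6. That of the fatty acid genes was -0.01 over all 6 libraries, -0.06 with GC offsets in either fit and -0.06 to 0.02 with 1 library left out.

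Signs turned for genes called in neither the fit over 5 libraries nor that over 6. With 1 library left out these were PMVK (-0.01 to 0.16), MVD (-0.002 to 0.20), FDFT1 (-0.07 to 0.01), CYP51A1 (-0.21 to 0.05), MSMO1 (-0.33 to 0.10), INSIG1 (-0.02 to 0.09), FASN (-0.20 to 0.09), FADS2 (-0.04 to 0.11), ACSL3 (-0.04 to 0.14) and STARD4 (-0.29 to 0.06). FASN was also at -0.06 over all 6 libraries and -0.05 under the block, and ACSL3 at -0.0016 with library totals. GC offsets gave HMGCS1 0.0045, FASN -0.05 and FADS2 -0.08 over 5 libraries, and CYP51A1 0.02, MSMO1 0.07, FASN -0.10, FADS2 -0.03 and STARD4 0.06 over 6. Depth limits ABCA1 most, at 56 to 162 reads per library.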

Other observations

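Of 8 genes of lipid droplets and triglyceride breakdown, 4 were called over 5 libraries, 2 higher and 2 lower in L1low. PLIN2, which coats droplets, stood at 108, 111 and 113 CPM in L1high replicates 1, 2 and 3 and at 149, 146 and 147 CPM in L1low, a log2 fold change of 0.44 (SE 0.07, edgeR adjusted p = 0.0034). PLIN3, a related coat protein, had one of 0.45 (edgeR adjusted p = 0.010). MGLL, which cleaves the last fatty acid from glycerol, stood at 17.8, 18.6 and 17.9 CPM in L1high and at 11.7, 10.5 and 10.8 CPM in L1low, and it fell by 0.72 on the log2 scale (SE 0.12, edgeR adjusted p = 0.0029). ABHD5, which activates the first lipase of the droplet, fell by 0.65 (edgeR adjusted p = 0.016). All 4 were called over 6 libraries as well.

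Of 10 genes of the isoprenoid branches, ICMT, which methylates prenylated proteins, was called, with a log2 fold change of -0.34 (edgeR adjusted p = 0.029). None of 12 fatty acid oxidation genes was called by edgeR over 5 libraries or by DESeq2, 2 had an unadjusted p under 0.05, and their median log2 fold change was 0.0044. Of 15 lipogenic switches, NCOA3 and SP1 rose by 0.40 and 0.30 (edgeR adjusted p-values of 0.013 and 0.035). Over the 8 related lists, 14 of 90 genes were called (15.6%), 6 higher and 8 lower, beside 7.57% of all genes.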
